A study of Mus musculus with 2 samples.

Results

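The genes described are the subunits of the oxidative phosphorylation machinery. They were taken by symbol, as all rows named Nduf (letters a, b, c, s or v with a number), Sdha to Sdhd, Uqcr, Cox4 to Cox8, Atp5, or mt-Nd, mt-Co, mt-Cytb and mt-Atp. These are 99 of the 26100 genes listed in both libraries: 86 rows of the nuclear genome and the 13 protein genes of the mitochondrial genome. The nuclear rows are 35 for complex I, 4 for complex II, 8 for complex III, 18 for complex IV and 18 for complex V, which make 83, and 3 rows that were left out of sums. Those 3 are Ndufb1-ps, named as a pseudogene and annotated as a noncoding RNA from a bidirectional promoter, Cox7a2l, a factor that joins complexes III and IV, and Ndufa4l2, a relative of the complex IV subunit Ndufa4. The nuclear rows Cox7b2, Cox8c and 1 of the 2 rows named Atp5o (ENSMUSG00000116933) were all but undetected, with 2 UMIs of Cox7b2 in MEF and 0 of the others in the 4 groups compared. CPM here means UMIs of a gene per 1000000 UMIs of the cells summed, where a UMI (unique molecular identifier) marks 1 captured RNA molecule at its 3′ end, so levels are not divided by gene length.

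Oxidative phosphorylation takes electrons from NADH at complex I and from succinate at complex II, passes them over complex III and cytochrome c to complex IV, which reduces oxygen, and uses the proton gradient built on the way to make ATP at complex V. Most subunits are made from nuclear genes and imported, while a small core of complexes I, III, IV and V is made inside the mitochondrion from its own genome. Complex II is wholly nuclear. Contracting muscle relies on this machinery, and in skeletal muscle and heart several complex IV subunits occur as tissue forms (Cox6a2, Cox7a1 and Cox8b) in place of those found in most cells (Cox6a1, Cox7a2 and Cox8a).

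Single cells of 2 mouse cultures were profiled with the 10x Genomics droplet assay, 1 library each. The MEF library held mouse embryonic fibroblasts, kept in what the labels call MEF media. The iMPC library held induced myogenic progenitor cells made from such fibroblasts by MyoD+F/R/C treatment and kept in medium with F/R/C, an abbreviation the labels do not spell out. Both cultures carried the genotype Tg:Pax7-nGFP/C57BL6;DBA2, and the design text speaks of a stable iMPC clone, so the iMPC cells stand for 1 clone. The labels repeat the iMPC treatment text for the MEF sample in a second field, while its own treatment entry names MEF media, and the latter was followed. With 1 library per group there was no replicate check, no test was made, and every interval is an exact 95% interval that covers counting error only. Cells of the libraries were also grown and captured apart, so culture, medium and library cannot be told apart in a comparison of the iMPC cells with MEF.

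In the MEF library 6043 cells with at most 20% mitochondrial UMIs were kept, holding 118069653 UMIs, and the median cell had 18929. In the iMPC library 9349 cells with at least 8036 UMIs and at most 20% mitochondrial UMIs were kept, and 16 of their barcodes also occur among the kept MEF cells. Of these, 2180 cells had a Pax7 UMI and no Myog UMI (Pax7 cells, after the satellite cell factor), 1724 had 5 or more Myog UMIs and at most 1 Ckm UMI (Myog cells, after the regulator of myoblast differentiation), and 1037 had 5 or more Ckm UMIs (Ckm cells, after muscle creatine kinase). No cell fell into more than 1 of these groups. The other 4408 iMPC cells met none of the rules. The median depth was 18729.5 UMIs in Pax7 cells, 23857.5 in Myog cells and 42148 in Ckm cells, which is partly set by the rule, since a deep cell reaches 5 UMIs more easily. The 9 fibroblast markers made up 0.679% of all UMIs in MEF and all 9 stood at 10 CPM or more there, against 0.135% in Pax7 cells, 0.0298% in Myog cells and 0.0143% in Ckm cells. At 10 CPM or more stood 6 of them in Pax7 cells, 4 in Myog cells and 4 in Ckm cells. Col3a1 alone was higher in Pax7 cells than in MEF, with 789 and 711 CPM. Of the 10 satellite cell markers, a list that includes Pax7, 9 stood at 10 CPM or more in Pax7 cells, 7 in Myog cells, 4 in Ckm cells and 2 in MEF. Among them Vcam1 was higher in MEF than in Pax7 cells, with 191 and 42.6 CPM. Itga7 was highest in Ckm cells, with 143 CPM beside 80.1 CPM in Pax7 cells. The 10 myocyte markers, a list that includes Ckm, made up 0.00961% in MEF, 0.106% in Pax7 cells, 1.60% in Myog cells and 5.03% in Ckm cells.

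The promoter sequences of 5 complex IV genes are shown because the clearest difference between the groups, described further on, is between the muscle forms and their common counterparts. They are the bases before the gene's start in RefSeq (GRCm38.p6), 5′ to 3′ on the gene's own strand, up to 250, without any base that the annotation puts inside the gene. Capitals mark an E-box (CANNTG, the letters bound by MyoD and related factors) or an NRF1 core (GCGCATGC), each searched on both strands.
Cox8b, chr7:140900447-140900696, minus strand: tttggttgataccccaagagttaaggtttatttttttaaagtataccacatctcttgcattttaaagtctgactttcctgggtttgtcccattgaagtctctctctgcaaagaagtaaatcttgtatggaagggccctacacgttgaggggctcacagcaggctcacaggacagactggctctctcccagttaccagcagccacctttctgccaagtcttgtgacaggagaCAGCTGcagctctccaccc
Cox7a1, chr7:30183921-30184143, plus strand: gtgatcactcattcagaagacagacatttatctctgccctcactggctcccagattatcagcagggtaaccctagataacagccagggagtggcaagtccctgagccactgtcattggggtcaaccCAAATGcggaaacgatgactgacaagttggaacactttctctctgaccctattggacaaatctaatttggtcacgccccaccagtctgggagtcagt
Cox8a, chr19:7217617-7217866, minus strand: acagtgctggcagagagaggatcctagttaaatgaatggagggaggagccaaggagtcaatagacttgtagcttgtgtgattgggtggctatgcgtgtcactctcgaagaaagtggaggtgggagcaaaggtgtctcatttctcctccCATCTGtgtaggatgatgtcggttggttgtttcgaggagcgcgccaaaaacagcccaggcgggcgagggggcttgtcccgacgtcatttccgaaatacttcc
Cox7a2, chr9:79759879-79760103, minus strand: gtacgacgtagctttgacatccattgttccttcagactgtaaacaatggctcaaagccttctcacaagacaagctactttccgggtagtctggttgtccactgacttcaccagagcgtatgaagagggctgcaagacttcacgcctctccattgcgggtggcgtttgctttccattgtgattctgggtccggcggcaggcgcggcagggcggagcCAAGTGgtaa
Cox6a1, chr5:115348982-115349208, minus strand: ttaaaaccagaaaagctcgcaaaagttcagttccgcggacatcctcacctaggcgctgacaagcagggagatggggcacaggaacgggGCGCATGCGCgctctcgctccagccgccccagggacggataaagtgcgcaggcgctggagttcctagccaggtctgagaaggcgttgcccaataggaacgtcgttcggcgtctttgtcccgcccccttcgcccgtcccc
Cox8b carries CAGCTG from base -19, Cox7a1 CAAATG from -124, Cox8a CATCTG from -102 and Cox7a2 CAAGTG from -35, and Cox6a1 carries overlapping NRF1 cores from -162 and -160, counted from the RefSeq start. Of the 85 nuclear symbols among the members, 67 had a promoter in the table used. In windows of 250 bases, an E-box occurred in 61.2% of these 67 and in 69.3% of all 27025 genes with a promoter, and its form CAGCTG in 8.96% and 14.7%. The NRF1 core, named after a regulator of respiratory genes, occurred in 11.9% of members and 2.56% of all genes, an ETS motif (CCGGAAG) in 17.9% and 7.83%, TATAAA in 10.4% and 14.3%, and AAGGTCA, which estrogen-related receptors bind, in 7.46% and 4.70%. These are matches of letters and no measure of binding.

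The summed nuclear subunits stood lowest in MEF and higher in each step from Pax7 to Myog to Ckm cells. Their sum was 25531 CPM in MEF, 38892 CPM in Pax7 cells, 46821 CPM in Myog cells and 55562 CPM in Ckm cells. The mitochondrially encoded subunits had another order: 59498 CPM in MEF, 35781 CPM in Pax7 cells, 44928 CPM in Myog cells and 66495 CPM in Ckm cells. Within the iMPC library both sums thus followed Pax7, Myog, Ckm, whereas the MEF library had the lowest nuclear sum and a mitochondrial sum close to that of Ckm cells. The number of nuclear subunit UMIs per mitochondrial subunit UMI was 0.429 in MEF, 1.09 in Pax7 cells, 1.04 in Myog cells and 0.836 in Ckm cells. Counted per cell, the nuclear subunits had a median of 2.57% of UMIs in MEF (quartiles 2.37% and 2.78%), 3.89% in Pax7 cells (3.24% and 4.42%), 4.62% in Myog cells (4.13% and 5.11%) and 5.36% in Ckm cells (4.66% and 6.27%). The middle ranges of MEF and Pax7 cells did not overlap, nor did those of Pax7 and Ckm cells, while those of Myog cells overlapped both neighbours. The mitochondrial share had a median of 5.78% in MEF (4.80% and 6.90%), 3.47% in Pax7 cells (2.94% and 4.16%), 3.90% in Myog cells (3.21% and 5.01%) and 5.98% in Ckm cells (4.71% and 7.87%), with overlapping middle ranges for MEF and Ckm cells.

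**Figure D1:**
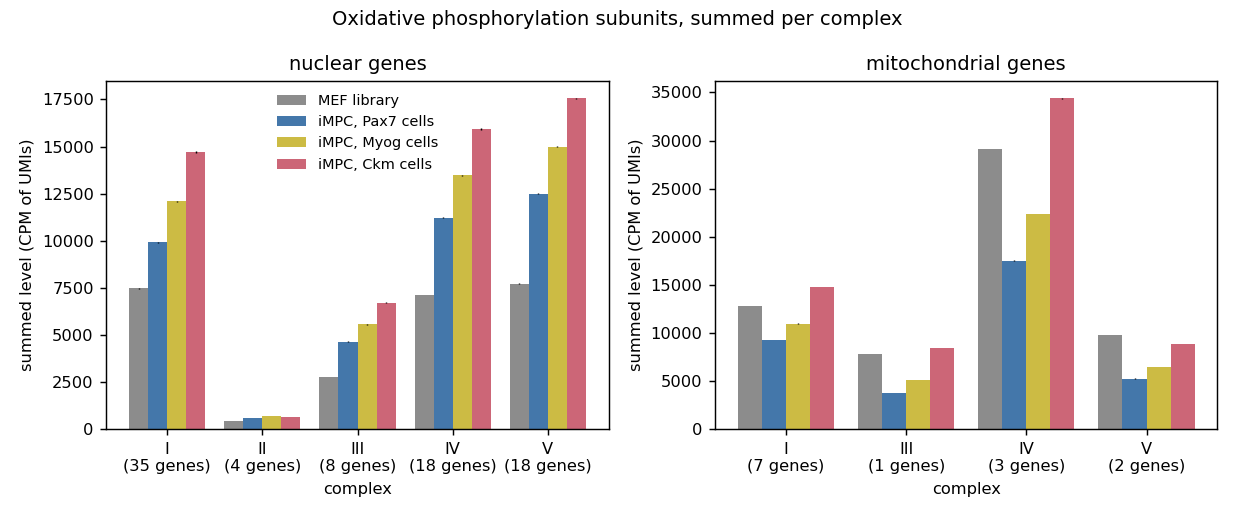
Summed level (CPM of UMIs) of the nuclear genes (left) and mitochondrial genes (right) of each complex in the MEF library and in Pax7, Myog and Ckm cells of the iMPC library; bars are sums over the cells of 1 library and error bars, hardly visible, are exact 95% Poisson intervals. The nuclear sums of complexes I, III, IV and V are higher in each group from MEF to Ckm cells, while the mitochondrial sums of MEF stand near those of Ckm cells and above those of Pax7 cells.

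The first comparison set Ckm cells against Pax7 cells, that is, the cells with most muscle creatine kinase against those with the satellite cell factor in the same culture. The nuclear sum was 1.43-fold higher in Ckm cells (log2 ratio 0.51, interval 0.51 to 0.52) and the mitochondrial sum 1.86-fold higher (0.89, 0.89 to 0.90). Over the 8115 genes at 10 CPM or more in either group the median log2 ratio was -0.46, so the typical gene was lower in Ckm cells. Among the 86 nuclear members, counted here and below with the rows left out of sums, 83 reached that level. Their median log2 ratio was 0.50, 75 were above 0 and 80 were above the median of all genes. At least 1.5-fold higher were 34 of these 83, against 18.0% of all genes, and 3 were at least 1.5-fold lower, against 44.6% of all genes. When ratios were scaled by the median gene, 68 nuclear members were 1.5-fold higher. When mitochondrial and ribosomal protein genes were left out of the total, 23 were. The share of all genes was not counted in these 2 settings, so 18.0% is not their background. Ribosomal protein genes, another large set of short abundant transcripts, made up 32.7% of UMIs in Pax7 cells and 24.4% in Ckm cells (log2 ratio -0.42). Their part in the CPM of other genes was not taken alone. The closing section gives ratios with a total that leaves out them and the mitochondrial genes together.

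Complex I, the NADH dehydrogenase, had nuclear sums of 9913 CPM in Pax7 cells, 12092 CPM in Myog cells and 14703 CPM in Ckm cells, and 7481 CPM in MEF. All 35 of its nuclear members were above 0 in log2 ratio between Ckm and Pax7 cells. At least 1.5-fold higher were 14, against 18.0% of all genes. The accessory subunit Ndufs5 went from 283 CPM in Pax7 cells to 457 CPM in Myog cells and 641 CPM in Ckm cells (log2 ratio of Ckm to Pax7 cells 1.18, interval 1.15 to 1.21), and stood at 274 CPM in MEF. The accessory subunit Ndufa11 had 203 CPM, 302 CPM and 458 CPM in the same order of iMPC groups (1.18, 1.14 to 1.21) and 324 CPM in MEF, so that its MEF level lay above that of Myog cells. In a split made after the values were seen, the 7 nuclear subunits that form the conserved core had a log2 ratio of their sum of 0.36 and 1 of 7 was 1.5-fold higher, against 0.59 and 13 of 28 for the accessory subunits.

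Complex II, succinate dehydrogenase, was the complex with the smallest difference between Ckm and Pax7 cells. Its sum was 442 CPM in MEF, 608 CPM in Pax7 cells, 694 CPM in Myog cells and 665 CPM in Ckm cells (log2 ratio of Ckm to Pax7 cells 0.13, interval 0.11 to 0.15). None of its 4 genes passed 1.5-fold in either direction in that comparison. Sdha, the flavoprotein, had 88.8 CPM in MEF, 102 CPM in Pax7 cells, 114 CPM in Myog cells and 113 CPM in Ckm cells. Sdhb, the iron-sulphur subunit, had 156, 153, 196 and 185 CPM in the same order. The membrane anchors differed from each other: Sdhc had 125, 180, 175 and 167 CPM, and Sdhd had 72.4, 172, 210 and 200 CPM. Highest in Myog cells were Sdha, Sdhb and Sdhd, and Sdhc was highest in Pax7 cells.

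Complex III, cytochrome bc1, had nuclear sums of 2762 CPM in MEF, 4646 CPM in Pax7 cells, 5572 CPM in Myog cells and 6708 CPM in Ckm cells (log2 ratio of Ckm to Pax7 cells 0.53). All 8 nuclear members were higher in Myog than in Pax7 cells and higher again in Ckm cells. Between Ckm and Pax7 cells 3 (Uqcr11, Uqcrq and Uqcrb, small subunits) passed 1.5-fold, against 18.0% of all genes. Uqcrh, the hinge protein by which cytochrome c docks, had 565 CPM in MEF and 1428, 1435 and 1630 CPM in Pax7, Myog and Ckm cells. Its step thus lay between the libraries. The log2 ratio of Uqcrh between Myog and Pax7 cells was 0.008 and ran from -0.06 to 0.14 over the alternative settings, so its direction there is not settled. Complex V, the ATP synthase, had nuclear sums of 7727 CPM in MEF, 12494 CPM in Pax7 cells, 14987 CPM in Myog cells and 17558 CPM in Ckm cells (log2 ratio of Ckm to Pax7 cells 0.49). Its parts differed. The catalytic head subunits alpha, beta and gamma (Atp5a1, Atp5b and Atp5c1), grouped after their values were seen, together had a log2 ratio of 0.08 (0.07 to 0.09) between Ckm and Pax7 cells and ranged from 0.01 to 0.13, with the highest level of each in Myog cells.

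The c ring of the ATP synthase, which turns with the proton flow, is made from 3 genes that encode the same mature protein. Atp5g1 had 492 CPM in MEF and 743, 1020 and 1387 CPM in Pax7, Myog and Ckm cells. Atp5g3 had 234 CPM in MEF and 516, 684 and 898 CPM in the iMPC groups. Atp5g2 had 751 CPM in MEF and 1069, 1047 and 1011 CPM in the iMPC groups. Thus Atp5g1 and Atp5g3 were higher in Ckm than in Pax7 cells (log2 ratios 0.90 and 0.80) and Atp5g2 was near level (-0.08), and by level Atp5g1 overtook Atp5g2 in Ckm cells. The remaining 11 measured subunits of the complex ranged from 0.21 to 0.99, and Atp5k, which helps ATP synthases pair, had the largest ratio among them, with 545 CPM in Pax7 and 1085 CPM in Ckm cells.

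**Figure D2:**
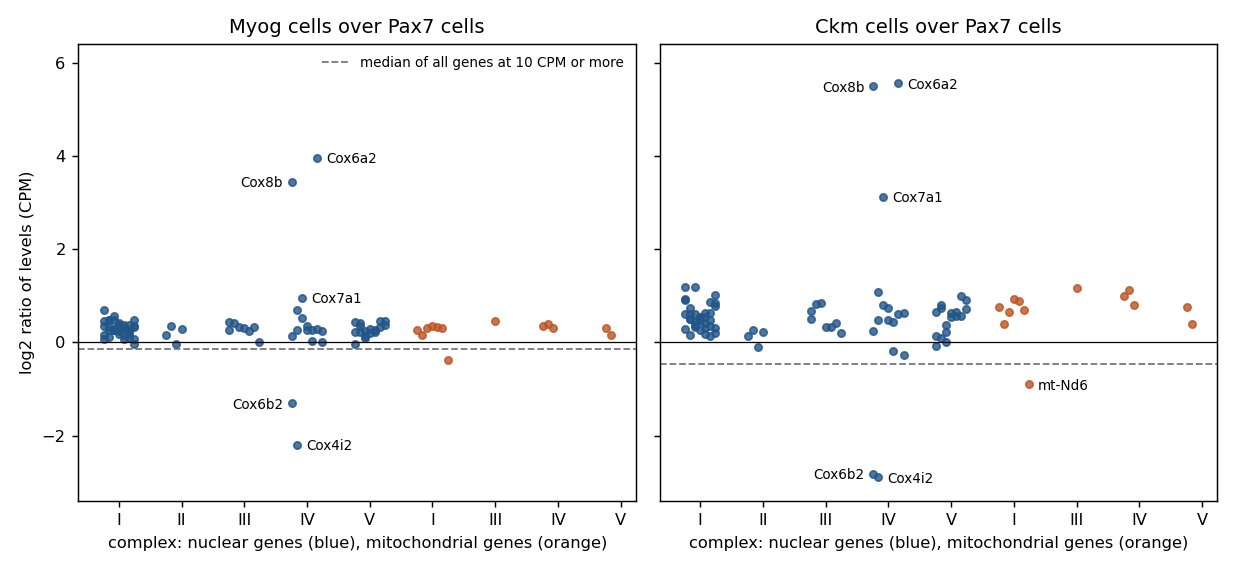
Log2 ratio of the level in Myog cells (left) and Ckm cells (right) to that in Pax7 cells for each member in a complex with 10 CPM or more in either group; points are genes, blue for nuclear and orange for mitochondrial ones, and the dashed line is the median of all genes, -0.14 on the left and -0.46 on the right. Most members lie above 0, Cox6a2, Cox8b and Cox7a1 stand above the rest, and Cox4i2, Cox6b2 and mt-Nd6 lie below.

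The largest differences of all members were in complex IV, cytochrome c oxidase, whose nuclear sum was 7120 CPM in MEF, 11231 CPM in Pax7 cells, 13477 CPM in Myog cells and 15929 CPM in Ckm cells. Cox6a2 (chromosome 7, 128205435 to 128206387), the form of subunit VIa in skeletal muscle and heart, had 0.966 CPM in MEF, 15.4 CPM in Pax7 cells, 240 CPM in Myog cells and 727 CPM in Ckm cells. It was 47.1-fold higher in Ckm than in Pax7 cells (log2 ratio 5.56, interval 5.45 to 5.67). Its common form Cox6a1 (chromosome 5, 115345642 to 115348981) had 386, 384, 393 and 335 CPM in the same order, so that Cox6a2 stood below Cox6a1 in Myog cells and above it in Ckm cells. Cox6a2 made up 0.250% of the UMIs of the pair in MEF, 3.87% in Pax7 cells, 37.9% in Myog cells and 68.4% in Ckm cells. Positions are on GRCm38 as annotated in GENCODE M21.

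Cox8b (chromosome 7, 140898945 to 140900446), the muscle form of subunit VIII, whose promoter is the first printed, had 0 UMIs in MEF, which allows up to 0.0254 CPM, 5.68 CPM in Pax7 cells, 61.6 CPM in Myog cells and 255 CPM in Ckm cells. The log2 ratio of Ckm to Pax7 cells was 5.49 (5.31 to 5.68). Its common form Cox8a (chromosome 19, 7215153 to 7217616) was among the most abundant nuclear members, with 994 CPM in MEF and 2054, 2070 and 1703 CPM in Pax7, Myog and Ckm cells. Cox8b therefore remained the smaller part of its pair in every group, with 0.276% of the UMIs of the pair in Pax7 cells, 2.89% in Myog cells and 13% in Ckm cells. Cox7a1 (chromosome 7, 30184144 to 30186078), the muscle form of subunit VIIa, had 7.06 CPM in MEF and 14.0, 27.3 and 122 CPM in the iMPC groups, and its log2 ratio of Ckm to Pax7 cells was 3.13 (3.01 to 3.25). Its common form Cox7a2 (chromosome 9, 79755361 to 79759878) was itself higher, with 412 CPM in MEF and 812, 975 and 1129 CPM in the iMPC groups. Cox7a1 made up 1.68% of the pair's UMIs in MEF, 1.70% in Pax7 cells, 2.72% in Myog cells and 9.78% in Ckm cells, so that most of its difference lay between Myog and Ckm cells.

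Cox6a1 and Cox8a had log2 ratios of -0.20 and -0.27 between Ckm and Pax7 cells, above the median of all genes, and their sign turns when ratios are scaled by the median gene, as do those of Sdhc and Atp5g2. The 3 muscle forms kept their direction under each alternative run. Free RNA of the same library held them too. Barcodes of 200 to 600 UMIs, too shallow for cells, held Cox6a2 at 439 CPM, Cox8b at 218 CPM and Cox7a1 at 87.5 CPM. If free RNA made up as many UMIs in each cell as the median of these barcodes (430), it would supply 9.34 of the 15.4 CPM of Cox6a2 in Pax7 cells, 4.65 of the 5.68 CPM of Cox8b and 1.86 of the 14.0 CPM of Cox7a1. After subtraction at that share the log2 ratios of Ckm to Pax7 cells were 6.87 for Cox6a2, 7.93 for Cox8b and 3.30 for Cox7a1. The ratios of Cox6a2 and Cox8b thus moved by more than 1.5-fold with their low levels in Pax7 cells, while in Ckm cells the same free RNA would supply 4.02 of the 727 CPM of Cox6a2. Between Myog and Pax7 cells subtraction moved the log2 ratio of Cox6a2 from 3.96 to 5.25 and that of Cox8b from 3.44 to 5.81. Between Pax7 cells and MEF the log2 ratio of Cox6a2 was 2.69 after subtraction from the Pax7 cells alone, as none was made for MEF.

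The same order was seen in single cells. When every cell was thinned to 5000 UMIs, which left out 284 MEF cells and no iMPC cell, Cox6a2 was found in 0.504% of MEF cells, 7.57% of Pax7 cells, 37.4% of Myog cells and 90.0% of Ckm cells. Without thinning these shares were 1.52%, 21.4%, 61.5% and 99.3%. Cox8b was found after thinning in 0 of 5759 MEF cells, which at 3 counts of the total allows a share of cells with a UMI of up to 0.0521% at this depth, and in 2.66%, 16.2% and 61.6% of Pax7, Myog and Ckm cells (0%, 9.31%, 37.0% and 94.4% without thinning). Cox7a1 was found in 3.47%, 6.10%, 9.45% and 36.2% (12.2%, 19%, 31.7% and 76.8% without thinning). The shares in MEF and in Pax7 cells serve as the background, and those of Ckm cells lie far above both. Markers of other cells in which such forms occur were low in sum: the 7 brown adipocyte markers had 23.9 CPM in Pax7 cells, 9.85 CPM in Myog cells and 17.4 CPM in Ckm cells, and the 7 cardiomyocyte markers 2.25, 3.14 and 5.38 CPM. Among the former, Cidea, a lipid droplet protein, moved with the muscle forms, with 0.136 CPM in Pax7 cells, 2.21 CPM in Myog cells and 14.6 CPM in Ckm cells. Dio2, which activates thyroid hormone, made up most of the sum in Pax7 cells, with 19.9 CPM there and 2.01 CPM in Ckm cells, and Ucp1, the defining uncoupling protein, had 0 UMIs in MEF and in the 3 iMPC groups.

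**Figure D3:**
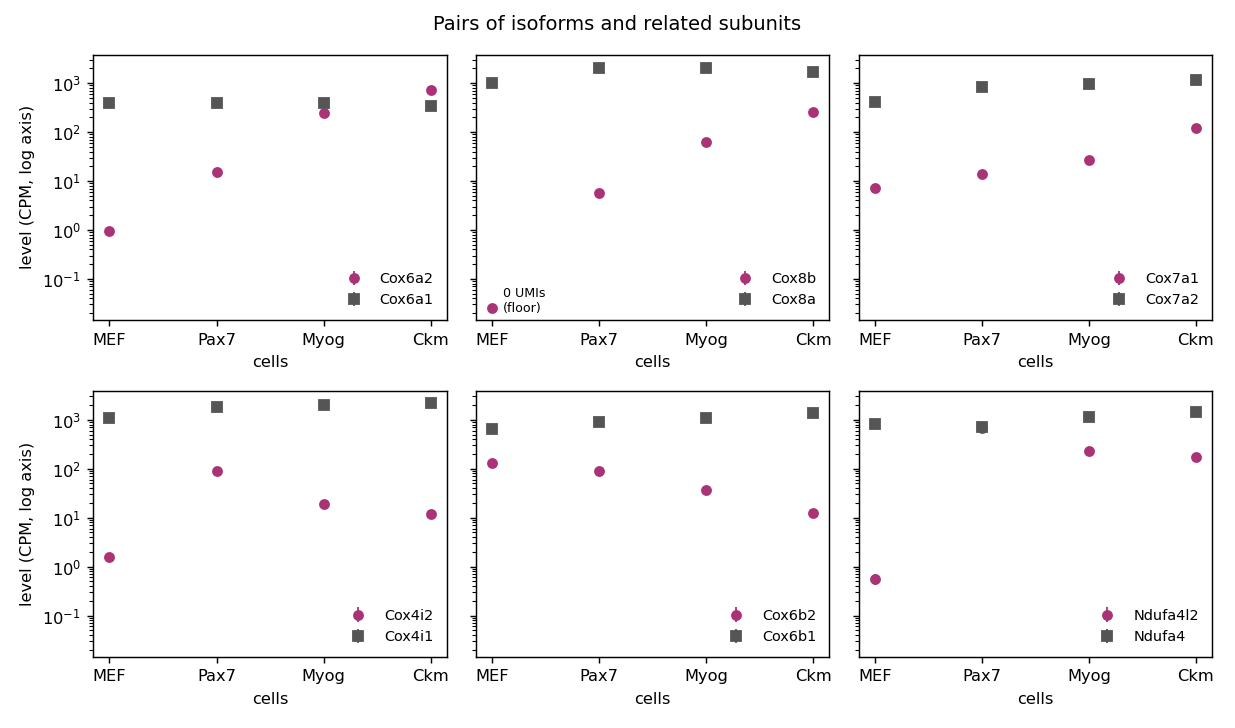
Level (CPM, log axis) of 6 pairs of complex IV isoforms and related genes in MEF and in Pax7, Myog and Ckm cells; points are sums over cells, error bars exact 95% Poisson intervals, and the 0 UMIs of Cox8b in MEF are drawn at the floor of 3 counts. Cox6a2, Cox8b and Cox7a1 go up from left to right, Cox6b2 goes down, and Cox4i2 and Ndufa4l2 are highest in Pax7 cells.

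Within the Ckm cells the muscle forms took a larger share the more Ckm UMIs a cell had. In the 704 cells with 5 to 19 Ckm UMIs, the 265 with 20 to 49 and the 68 with 50 or more, Cox6a2 made up 66.1%, 70.7% and 75.2% of its pair, Cox8b 11.2%, 15.6% and 17.7%, and Cox7a1 8.10%, 11.8% and 13.2%. The nuclear sum was 53469, 58566 and 60304 CPM and the mitochondrial sum 61981, 73204 and 75935 CPM in the same steps. Median depth moved with the steps as well, at 37963.5, 50015 and 55639.5 UMIs, and its part in the order was not tested.

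**Figure D4:**
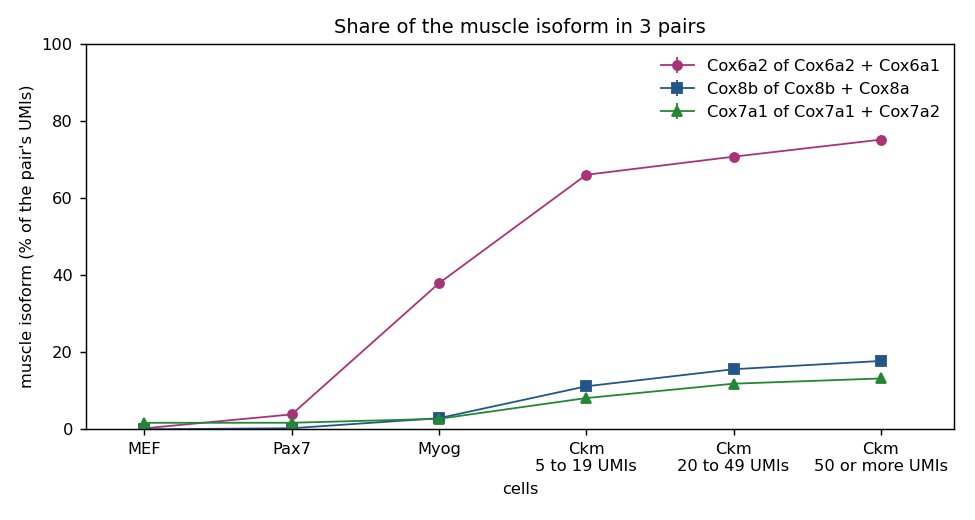
Share of the muscle isoform in the UMIs of its pair (percent) for Cox6a2, Cox8b and Cox7a1 in MEF, Pax7 and Myog cells and in Ckm cells by their number of Ckm UMIs; points are sums over cells with exact 95% binomial intervals, and lines only join the points. Cox6a2 passes 66% in the lowest Ckm step and reaches 75.2% in the highest, while Cox8b and Cox7a1 stay under 20%.

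A second set of complex IV relatives went the other way. Cox4i2 (chromosome 2, 152754173 to 152765037), the form of subunit IV that is known from lung and from low oxygen, had 1.60 CPM in MEF, 88.3 CPM in Pax7 cells, 19.3 CPM in Myog cells and 11.9 CPM in Ckm cells, a log2 ratio of Ckm to Pax7 cells of -2.89 (-3.02 to -2.77). Cox4i1, its common form, had 1109, 1827, 2020 and 2162 CPM, so that Cox4i2 never made up more than 4.61% of the pair in these 4 groups. Ndufa4l2 (chromosome 10, 127514967 to 127517154), known to be induced in low oxygen, had 0.551 CPM from 65 UMIs in MEF and 672, 232 and 171 CPM in the iMPC groups. The related subunit Ndufa4 had 804 CPM in MEF and 701, 1137 and 1473 CPM in the iMPC groups, and Ndufa4l2 made up 49% of the UMIs of the pair in Pax7 cells, 16.9% in Myog cells and 10.4% in Ckm cells. Cox6b2 (chromosome 7, 4751792 to 4753094), the testis form of subunit VIb, differed from both in being highest in MEF, with 128 CPM there and 89.1, 36.0 and 12.6 CPM in the iMPC groups, while Cox6b1 had 657, 899, 1067 and 1387 CPM. After thinning, Cox4i2 was found in 0.729% of MEF cells and 26.9%, 7.48% and 4.34% of Pax7, Myog and Ckm cells, and Ndufa4l2 in 0.243%, 74.6%, 48.3% and 42.0%. Cox6b2 was found in 36.5%, 30.1%, 14.4% and 4.53%. Without thinning the shares were 2.75%, 51.2%, 21.3% and 20.3% for Cox4i2, 0.844%, 88.4%, 74.5% and 75.2% for Ndufa4l2, and 59.9%, 61.8%, 45.6% and 33.2% for Cox6b2.

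Some of the same genes varied inside the Pax7 group. Among its cells 1127 cells with a UMI of Mki67, a proliferation marker, had a median of 22221 UMIs and 1053 cells without one had 15673. Ndufa4l2 had 526 CPM in the first and 897 CPM in the second, and Cox4i2 66.1 CPM and 122 CPM. Ndufa4 was the reverse, with 811 CPM in cells with Mki67 and 533 CPM in those without. The nuclear sum was 40771 CPM with Mki67 and 36017 CPM without (log2 ratio 0.18), the mitochondrial sum 34460 CPM and 37802 CPM (-0.13). These differences were smaller than those between Pax7 and Ckm cells in both sums. Among MEF cells 602 had a Mki67 UMI and 5441 had none, a smaller share with Mki67 than among Pax7 cells. The log2 ratio of MEF cells with Mki67 to those without was -0.07 for the nuclear and -0.24 for the mitochondrial sum. The part of this in the comparison of Pax7 cells with MEF was not tested.

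The second comparison set Myog cells against Pax7 cells. The nuclear sum was 1.20-fold higher in Myog cells (log2 ratio 0.27, interval 0.26 to 0.27) and the mitochondrial sum 1.26-fold higher (0.33, 0.33 to 0.33), beside a median of all genes of -0.14. Only 5 of 83 nuclear members were 1.5-fold higher, against 11.8% of all genes, and 3 were lower, against 22.8%. The 5 were Cox6a2 (log2 ratio 3.96), Cox8b (3.44), Cox7a1 (0.96), Ndufa4 (0.70) and Ndufs5 (0.69). The 3 were Cox4i2 (-2.19), Ndufa4l2 (-1.54) and Cox6b2 (-1.31). The others shifted together by a small amount: 76 of 83 were above 0 and 80 above the median of all genes. Scaling by the median gene put 15 past 1.5-fold higher, a setting for which the share of all genes was not counted. Over the 3 iMPC groups, 67 of the 83 nuclear members (80.7%) stood in the order Pax7, Myog, Ckm from low to high, as did 12 of the 13 mitochondrial genes, against 21.3% of the 8193 genes at 10 CPM or more in any of them.

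The 13 mitochondrially encoded subunits were mostly higher in Ckm than in Pax7 cells. Past 1.5-fold higher were 10 of 13, against 18.0% of all genes, and 1 was lower, against 44.6%. mt-Cytb, the cytochrome b of complex III, had 3744 CPM in Pax7 cells, 5105 CPM in Myog cells and 8455 CPM in Ckm cells, the largest log2 ratio of the 13 at 1.18. The core subunits of complex IV were higher as well: mt-Co1 had 5819, 7403 and 11507 CPM, mt-Co2 5866, 7742 and 12739 CPM, and mt-Co3 5823, 7214 and 10159 CPM. mt-Atp6, the proton channel of complex V, had 5169, 6366 and 8726 CPM. In complex I the log2 ratios of Ckm to Pax7 cells ran from 0.39 for mt-Nd2 to 0.94 for mt-Nd4, with mt-Nd1 at 0.76, mt-Nd3 at 0.65, mt-Nd4l at 0.88 and mt-Nd5 at 0.69, and mt-Atp8 of complex V stood at 0.38. mt-Nd6, the only member on the other strand of the mitochondrial genome, had 305 CPM in Pax7 cells, 235 CPM in Myog cells and 163 CPM in Ckm cells (-0.90), the opposite order to the other 12. No mitochondrial gene passed 1.5-fold between Myog and Pax7 cells, against 11.8% of all genes higher and 22.8% lower. With at most 10% mitochondrial UMIs allowed per cell, the log2 ratio of the mitochondrial sum of Ckm to Pax7 cells was 0.78 in place of 0.89. Free RNA held much mitochondrial RNA, 167495 CPM, and would supply 3567 of the 35781 CPM in Pax7 cells at the share used before.

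The third comparison set Pax7 cells against the MEF library. The nuclear sum was 1.52-fold higher in Pax7 cells (log2 ratio 0.61, interval 0.60 to 0.61), and the mitochondrial sum stood at 0.601 of that in MEF (-0.73, -0.74 to -0.73), beside a median of all genes of -0.09. Of 82 nuclear members at 10 CPM or more, 45 were 1.5-fold higher in Pax7 cells, against 24.2% of all genes, and 1, Ndufa11, was lower (-0.68, -0.71 to -0.64), against 30.5%. The largest ratios were those of Ndufa4l2 (log2 ratio 10.25, 9.90 to 10.63), Cox4i2 (5.79) and Cox6a2 (15.4 CPM in Pax7 cells beside 0.966 CPM in MEF), followed by Uqcrh (1.34) and Sdhd (172 CPM beside 72.4 CPM), and among the smallest after Ndufa11 were Cox6b2 (-0.52), Ndufa4 (-0.20) and Ndufa3 (-0.07). By complex, the log2 ratio of the nuclear sum was 0.41 for complex I, 0.46 for II, 0.75 for III, 0.66 for IV and 0.69 for V. Ribosomal protein genes had a log2 ratio of 0.61 here as well, from 21.5% of UMIs in MEF to 32.7% in Pax7 cells.

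By the UMIs assigned to each, the mitochondrial genes split into opposite directions between these libraries. Of all genes, 30.5% were lower and 24.2% higher in Pax7 cells by the same rule. At least 1.5-fold lower in Pax7 cells were 7: mt-Cytb (-1.06), mt-Co3 (-1.04), mt-Nd4 (-0.93), mt-Atp6 (-0.91), mt-Nd1 (-0.73), mt-Co2 (-0.71) and mt-Nd3 (-0.63), while mt-Co1 (-0.37) and mt-Nd2 (-0.36) were lower by less. At least 1.5-fold higher were 4: mt-Nd6 with 33.3 CPM in MEF and 305 CPM in Pax7 cells (3.20), mt-Atp8 with 29.1 and 99.3 CPM (1.77), mt-Nd5 with 296 and 780 CPM (1.40) and mt-Nd4l with 206 and 478 CPM (1.22). These 4 together made up 0.949% of the mitochondrial UMIs in MEF and 4.65%, 4.25% and 3.66% in Pax7, Myog and Ckm cells. In the annotation mt-Atp8 overlaps mt-Atp6 by 43 bases, mt-Nd4l overlaps mt-Nd4 by 7 and mt-Nd5 overlaps mt-Nd6 on the other strand by 14. How reads in these stretches were assigned is not given in the sources used here. mt-Atp8 and mt-Nd4l went the opposite way to the genes they overlap, so these ratios are of assigned UMIs and may not be separate RNA levels. The labels' processing notes name the same build and tools for both libraries, but the MEF matrix lists 24 genes more, so it is not known whether the same annotation and settings were used, and the part of this in the 4 genes was not tested.

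Cells of the iMPC library with much of a fibroblast marker were set beside MEF, a choice made after the values were seen. They are the 113 remaining iMPC cells with 20 or more UMIs of Dcn, a fibroblast proteoglycan, and none of Pax7 or Myog, with a median of 17900 UMIs. Their nuclear sum was 24900 CPM, near the 25531 CPM of MEF (log2 ratio -0.04) and below the 38892 CPM of Pax7 cells (-0.64). Their mitochondrial sum was 35085 CPM, near the 35781 CPM of Pax7 cells (-0.03) and below the 59498 CPM of MEF (-0.76). The 4 mitochondrial genes just named made up 3.84% of their mitochondrial UMIs and 4.10% of those in the shallow barcodes, as in the rest of the iMPC library and unlike MEF. Ndufa4l2 stood at 1548 CPM and Cox4i2 at 310 CPM in these cells, the highest levels of both genes in any group described. Cox6a2 stood at 9.15 CPM, close to the 8.86 CPM that free RNA would give in the remaining cells. Cox8b stood at 3.20 CPM, beside 4.41 CPM from free RNA. Cox7a1 differed, with 47.1 CPM (38.4 to 57.1) beside 1.77 CPM from free RNA, and lay above its levels in Pax7 and Myog cells. It made up 8.76% of the UMIs of its pair there, against 9.78% in Ckm cells. Thus the nuclear sum of these cells was that of the MEF library, and their mitochondrial sum, the mix of mitochondrial genes and the level of Ndufa4l2 were unlike it.

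**Figure D5:**
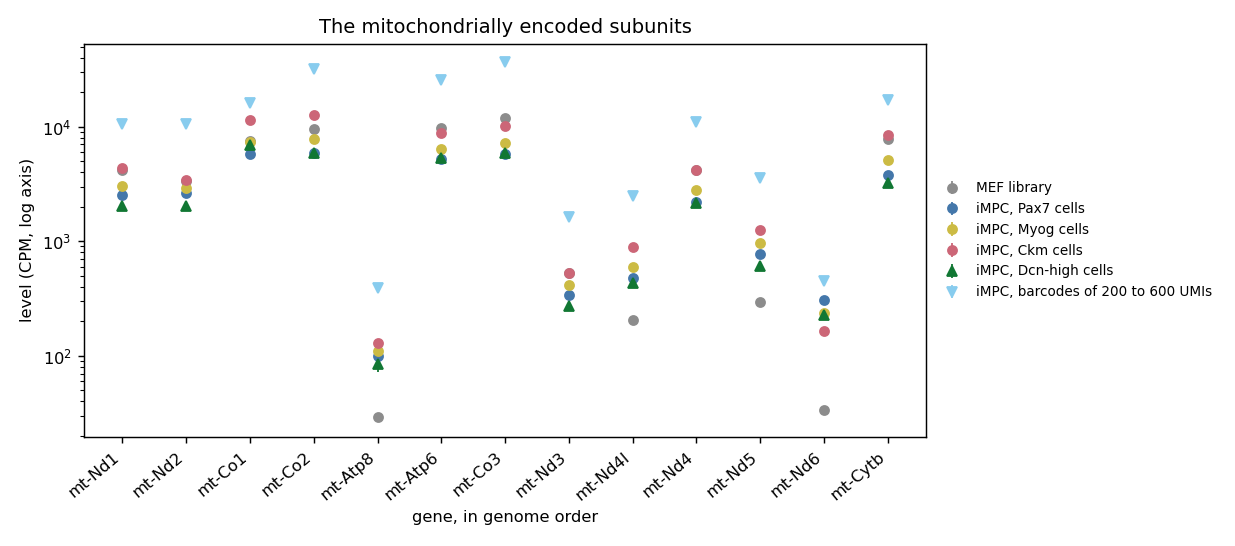
Level (CPM, log axis) of the 13 mitochondrially encoded subunits, in genome order, in MEF, in Pax7, Myog and Ckm cells, in Dcn-high iMPC cells and in iMPC barcodes of 200 to 600 UMIs; points are sums over barcodes with exact 95% Poisson intervals. For mt-Atp8, mt-Nd4l, mt-Nd5 and mt-Nd6 the MEF point lies below every iMPC point, and for mt-Co3 and mt-Atp6 it lies above all iMPC cell groups.

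Other genes of the pathway were read from fixed lists, and the genes named from them were chosen after their values were seen. Their counts stand beside 18.0% of all genes higher and 44.6% lower in Ckm than in Pax7 cells. Of the 3 measured subunits and carriers outside the symbol rule all were 1.5-fold higher in Ckm than in Pax7 cells: cytochrome c1 (Cyc1) had 272 and 448 CPM, the acyl carrier subunit of complex I (Ndufab1) 475 and 813 CPM, and cytochrome c (Cycs) 288 and 591 CPM. Of 49 measured assembly factors 15 were higher and 1, Ttc19, lower. Cox19, a copper chaperone for complex IV, had 46.7 CPM in Pax7 cells and 137 CPM in Ckm cells, and Higd1a, which binds complex IV, 406 and 937 CPM. Of 10 genes by which pyruvate enters the mitochondrion 6 were higher, among them the carrier Mpc1 with 78.7 and 248 CPM. The TCA cycle list had 4 higher and 1 lower of 13, the inner membrane list 3 higher of 10 and the mitochondrial ribosome list 9 higher and 4 lower of 77. The last is a smaller share of higher genes than over all genes, but also of lower genes, and 71 of the 77 were above the median of all genes. Ckmt2, the muscle mitochondrial creatine kinase and 1 of 2 higher genes among 8 carriers, had 0.545 CPM in Pax7 cells and 43.9 CPM in Ckm cells.

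Of 26 listed regulators of mitochondrial gene expression 16 reached 10 CPM. In Ckm against Pax7 cells 1 of these (Lrpprc, which stabilises mitochondrial RNA) was higher and 8 were lower, a share of lower genes near the 44.6% of all genes, and their median log2 ratio was -0.59, which is 0.13 below the median of all genes. Nrf1, whose motif was searched in the promoters, had 13.7 CPM in MEF and 19, 16.1 and 5.80 CPM in Pax7, Myog and Ckm cells. Tfam, which packs and transcribes mitochondrial DNA, had 16.7 CPM in MEF and 52.0, 49 and 35.8 CPM in the iMPC groups. Of the 16, 5 had log2 ratios above 0 in Ckm against Pax7 cells, among them Ppargc1b with 25.2 and 32.3 CPM in Pax7 and Ckm cells. Below 10 CPM directions differed: Ppargc1a had 1.11 and 2.63 CPM and Polg2 9.13 and 6.39 CPM in Pax7 and Ckm cells. Esrrg stood under the floor of 0.0682 CPM in Pax7 cells and at 2.43 CPM in Ckm cells. In glycolysis 4 of 17 genes were higher, a share near that of all genes, and 4 were lower in Ckm cells, among them the muscle forms Eno3 (43.3 and 1128 CPM in Pax7 and Ckm cells) and Pgam2 (8.38 and 529 CPM) beside their common forms Eno1 (703 and 421 CPM) and Pgam1 (888 and 448 CPM). Between Pax7 cells and MEF 15 of 16 measured glycolytic genes were higher in Pax7 cells and none lower, beside 45 of 82 nuclear members and 24.2% of all genes.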

How the data were processed

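Single cells of 2 mouse cultures were profiled in 1 library each with the 10x Genomics 3′ version 3 kit, per the labels' protocols. Both deposited matrices give whole-number counts of UMIs for each gene in each barcode. Per the submitters' processing notes, Cell Ranger 4.0, Seurat 3.2.3 and GRCm38.p6 were used; how reads in overlapping genes were assigned is not given in the sources used here. The members, gene lists and rules were chosen with earlier results of these data known.

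The iMPC matrix lists 6794880 barcodes, 2707590 with a UMI. The 10000 deepest barcodes were ranked, and 10% of their 99th percentile, 8036 UMIs, served as the minimum; it left 9540, and 191 over 20% mitochondrial UMIs were removed. The MEF matrix lists 6113 barcodes, of which 70 were removed and the least deep one kept had 160 UMIs. The 26100 genes in both matrices were used, without 24 found only in MEF (0.209% of its UMIs). Doublets were kept in the main values and removed with Scrublet in an alternative: 418 iMPC cells, and 292 MEF cells by the highest scores, since its own threshold marked 1.

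UMIs were summed per group and divided by the group's total (CPM). Intervals are exact Poisson for levels, exact conditional for ratios and exact binomial (Clopper-Pearson) for shares, at 95%, without biological spread. A gene was counted as higher or lower at 1.5-fold with at least 10 CPM in the higher group, and a count of 0 was set to a floor of 3. Shares of cells were taken after thinning cells to 5000 UMIs without replacement. Named were the isoform pairs, the 13 mitochondrial genes, the 4 Sdh genes and the 5 largest and 5 smallest ratios of nuclear members in each comparison; others were chosen after their values were seen. A gene that this rule names is not reported here. Free RNA was read from 48846 iMPC barcodes of 200 to 600 UMIs and, in an alternative, subtracted from the iMPC groups but not from MEF. The ratio script was tested on simulated data. Python 3.11.15, numpy 2.4.6, scipy 1.17.1, pandas 2.3.3 and scanpy 1.11.5 were used. Alternatives were other totals, scaling by the median gene, means over cells, mitochondrial and doublet filters, group thresholds, thinning, free RNA, and other folds and minimum levels; running them on every named gene beyond the muscle forms was chosen after seeing the data.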

Additional observations from a re-analysis of the deposited data

Results flagged for a closer look

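The 3 muscle forms were found outside the cells that the comparisons use. In 48846 iMPC barcodes of 200 to 600 UMIs, too shallow to be kept as cells, Cox6a2 stood at 439 CPM (interval 430 to 448), Cox8b at 218 CPM (212 to 225) and Cox7a1 at 87.5 CPM (83.5 to 91.5). Each is above the 0.141 CPM that a count of 0 would allow there, and above the level of the same gene in Pax7 cells.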

How the results depend on the processing

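All intervals cover counting error only, and these are so narrow that 52 of 56 alternative values of the sums fell outside them, while no alternative turned a direction. For Ckm against Pax7 cells the log2 ratios of the nuclear and the mitochondrial sum were 0.56 and 0.94 with a total without mitochondrial genes, 0.40 and 0.78 without ribosomal protein genes as well, 0.91 and 1.29 scaled by the median gene, 0.54 and 0.84 as means over cells, 0.50 and 0.78 with at most 10% mitochondrial UMIs, 0.54 and 0.92 without Scrublet doublets, 0.58 and 1.05 with stricter group thresholds, 0.56 and 0.88 with cells thinned before grouping, and 0.53 and 0.99 with free RNA subtracted. For Myog against Pax7 cells, in the same order of settings, they were 0.28 and 0.34, 0.25 and 0.31, 0.40 and 0.46, 0.28 and 0.28, (mitochondrial alone) 0.29, 0.29 and 0.33, 0.23 and 0.29, 0.27 and 0.32, and 0.28 and 0.38. For Pax7 cells against MEF they were 0.57 and -0.77, 0.79 and -0.55, 0.68 and -0.66, 0.57 and -0.69, (mitochondrial alone) -0.73 and -0.73 for the mitochondrial and doublet filters, 0.63 and -0.74, 0.57 and -0.68, and 0.60 and -0.85, and the nuclear sum was 0.61 when MEF cells had to reach the iMPC minimum of UMIs. The cause of these shifts was not tested. Free RNA was subtracted from the iMPC groups and not from MEF, so 0.60 and -0.85 are corrected on the iMPC side only. The thinned setting also used lower limits of Myog and Ckm UMIs for the groups, so it does not change depth alone. Its groups held 1513 Pax7, 1949 Myog and 573 Ckm cells, and those of the stricter thresholds 1291, 1065 and 333.

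With a fold of 2, the nuclear members higher numbered 7 for Ckm and 2 for Myog against Pax7 cells and 12 for Pax7 cells against MEF, and 0 were lower in the last. Scaling by the median gene gave 68 and 15 higher for Ckm and Myog against Pax7 cells. Once mitochondrial and ribosomal protein genes were taken out of the total, 0 members were lower in Pax7 cells than in MEF. The other 29 alternative counts stayed within 1.5 times. The share of all genes was not counted under the alternatives, so these counts have no background beside them. Of the alternative values of single genes 573 fell outside the counting interval of the main value and 491 inside it, and none that passed 1.5-fold changed sign. In Ckm against Pax7 cells, 5 of 38 named genes moved by more than 1.5-fold under some setting: Cox4i2, Cox6b2, Cox6a2, Cox8b and Cox7a1. In each of the other comparisons 2 did, Cox6a2 and Cox8b. No replicate could be left out, since each group holds 1 library. No paired analysis was possible because there is 1 library per group. Free RNA limits the low levels of Cox6a2 and Cox8b in Pax7 cells. At the share used before it would supply 9.34 CPM of Cox6a2 and 4.65 CPM of Cox8b there, most of either level. It was not subtracted from MEF.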
